A study of Homo sapiens with 8 samples.

Results

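A set of 10 abundant cytoskeletal mRNAs was followed through ribosome profiling of stressed U2OS cells: the cytoplasmic actins ACTB and ACTG1, the actin-binding proteins PFN1, CFL1 and TMSB10, the tropomyosins TPM1 and TPM2, the non-muscle myosin chains MYL6 and MYH9, and VIM. They were taken by name, and all 10 were found among the 26902 entries of the deposited table. U2OS is an established human osteosarcoma line. Cells with an empty vector were set against cells overexpressing QKI7, one of the proteins made from the RNA-binding gene QKI, and all of them had been exposed to 0.5 mM NaAsO2 (sodium arsenite) for 1 h before harvest. Each construct gave 2 libraries of input RNA and 2 libraries of ribosome-protected RNA of 17 to 34 nt, called footprints here, so that 4 groups of 2 libraries were compared. No cells without arsenite were analysed here. The sources used here give neither how the construct was delivered nor whether the lines were clones. Nothing in the labels says that the replicates are separate cultures; p-values then measure no more than the spread between libraries, and that spread may be technical.

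Actin filaments grow from a pool of monomers. Thymosins such as TMSB10 hold monomers in reserve, profilin (PFN1) recharges them and delivers them to growing ends, and cofilin (CFL1) severs old filaments. Tropomyosins wind along the filament and set which other proteins can bind, and non-muscle myosin II, built from heavy chains such as MYH9 and light chains such as MYL6, pulls on it. VIM encodes vimentin, which forms intermediate filaments, a separate network of mesenchymal cells that is linked to actin. In osteosarcoma cells actin, tropomyosins and non-muscle myosin II are parts of stress fibres.

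Values are TPM as the authors deposited them, a share of all transcripts corrected for length, so input levels of different genes can be set side by side. The sources used here do not say which length was used for footprints, which come mostly from coding sequence. Footprint TPM of different genes, and footprint TPM per input TPM, are therefore compared with that limit. The part of the coding share of each mRNA in them was not tested. Read depth is unknown, since TPM does not keep it. Protein-coding mRNA made up 3.85% ± 0.197 of all TPM in vector inputs and 4.37% ± 0.198 in QKI7 inputs, but 0.628% ± 0.00218 and 0.613% ± 0.00465 in the footprints (SD, n = 2 each). A second scale, called the mRNA scale, therefore kept the mRNA entries alone and rescaled each library to the same sum. QKI itself took 3.81% ± 0.101 of the mRNA TPM in QKI7 inputs against 0.00838% ± 0.000380 in vector inputs, and RELN took 10.4% ± 0.0835 in QKI7 footprints against 1.45% ± 0.0834 in vector footprints. In inputs RELN took only 7.71e-05% ± 3.28e-05 (vector) and 6.81e-05% ± 2.93e-05 (QKI7), so its footprint TPM had almost no RNA beside them. What the RELN reads come from was not tested. The larger shares of these 2 entries with QKI7 lower every other mRNA on that scale, so the median change over all entries tested is printed beside the changes. Tests were limma on log2(TPM + 1), over the 5806 entries whose mean reached 1 TPM (2684 genes on the mRNA scale), and a gene is called where the adjusted p was under 0.05. With 2 libraries against 2, an exact permutation test cannot go below p = 0.333, so all calls rest on the spread that limma shares between genes.

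The labelled cell type was set against marker genes. Of 8 mesenchymal or osteoblast-like markers, 4 reached a mean of 1 TPM (COL1A1, COL5A1, SPARC and FN1), while COL1A2 and TWIST1 did not pass 0.07 TPM in any library and RUNX2 lay between 0.27 and 0.72 TPM in inputs. None of 6 epithelial and 6 blood markers reached that mean, with CLDN4 (up to 0.36 TPM) and HBB (up to 0.57 TPM) as their highest. The epithelial list held the keratins KRT5 and KRT14 but not KRT8 and KRT18, named here after their values were seen. KRT8 had 7.89 to 9.63 TPM and KRT18 had 28.5 to 35.3 TPM in inputs, so keratin mRNA was not absent from these cells. The muscle actins ACTA1, ACTA2, ACTC1 and ACTG2 did not pass 0.75 TPM in any library. Of the 9 genes in that muscle list 1 was tested, TNNT1, a muscle troponin named after its values were seen, with 16.7 and 19.5 TPM in vector inputs and 13.8 and 15.2 TPM in QKI7 inputs. It was lower with QKI7 as deposited (log2 change -0.30, adjusted p = 0.0268) and was not called on the mRNA scale. The libraries are bulk, so fewer cells with an mRNA and less of it in each cell cannot be told apart.

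The actins showed how differently close relatives can stand in RNA and in footprints. ACTB (chromosome 7, 5527148 to 5530601 in GRCh38) had 184 and 189 TPM in vector inputs, 165 and 157 TPM in QKI7 inputs, 35.3 and 34.6 TPM in vector footprints and 27.0 and 27.8 TPM in QKI7 footprints. QKI7 libraries lay below vector libraries in both kinds, without overlap. ACTG1 (chromosome 17, 81509971 to 81512799) had 53.4 and 56.2, 50.1 and 48.0, 32.4 and 32.4, and 31.5 and 31.01 TPM in the same order of groups. Its QKI7 libraries were also below the vector libraries, by a small margin in footprints. ACTB was thus 3.40 ± 0.0628 times ACTG1 in vector inputs but 1.08 ± 0.0144 times ACTG1 in vector footprints (SD, n = 2), and 3.28 ± 0.0218 and 0.877 ± 0.0272 times in QKI7 inputs and footprints. This ratio is taken within a library and does not depend on how libraries were scaled. The 2 actins encode nearly the same protein, so short reads of their coding parts can be hard to place, and the sources used here do not say how reads shared by both genes were divided. Reads might also be placed on other actin-like genes. POTEE and POTEF, named after their values were seen, are primate genes with an actin-like part, and had 55.9 to 83.7 and 28.6 to 50.9 TPM in inputs but no more than 0.30 and 0.31 TPM in footprints. POTEH, a relative without that part, had 53.8 to 79.7 TPM in inputs.

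**Figure D1:**
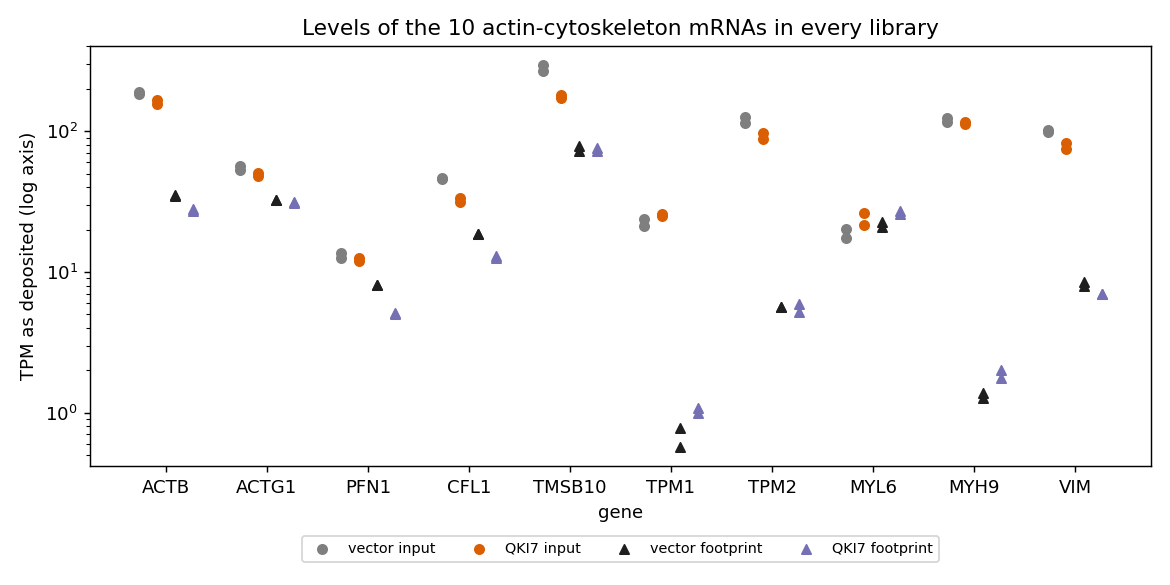
TPM as deposited (vertical log axis) of the 10 genes in each of the 8 libraries; circles are inputs, triangles are footprints, and each group has 2 points. TMSB10 had the highest mean in all 4 groups, and MYH9, TPM1 and TPM2 dropped farthest from inputs to footprints.

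Actin genes are classical targets of serum response factor, which binds the CArG box and is itself controlled by the pool of free actin monomers. The promoters of RefSeq (GRCh38.p14) were therefore searched for CArG boxes in the 250 bases before the start site. Promoters were found for 9 of the 10 genes, all but ACTB (10 promoters in all), and 1 of them, that of ACTG1, held a box. Its window is chr17:81512859-81512918 on the minus strand, and the first base of the box is at position -94 from the start site. Among 83 other actin, myosin and intermediate filament genes with a promoter, 8 held a box in at least 1 promoter (9.64%), against 1.59% of 15842 protein-coding genes. Per promoter the shares were 10 of 141 (7.09%) and 1.18% of 22198. The windows of 60 bases below show ACTG1 and 3 of those relatives: FLNA (chrX:154374694-154374753, minus strand) and CNN2 (chr19:1026494-1026553, plus strand), which passed a test below, and TPM4 (chr19:16067340-16067399, plus strand), a tropomyosin. The box is in capitals, and the pattern reads the same on both strands. ROCK2, also called below, held a box too, and its window is not shown. A match is only a match of letters, and a link between the boxes and QKI7 was not tested.
ACTG1: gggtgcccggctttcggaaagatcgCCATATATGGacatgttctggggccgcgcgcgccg
FLNA: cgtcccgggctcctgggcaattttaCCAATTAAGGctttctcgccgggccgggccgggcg
CNN2: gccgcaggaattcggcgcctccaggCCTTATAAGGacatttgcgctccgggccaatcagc
TPM4: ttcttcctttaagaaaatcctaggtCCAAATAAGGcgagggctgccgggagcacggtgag
None of the 10 promoters held the letters TATAAA before the start site (6.18% of protein-coding promoters do). All 10 held GGGCGG or its reverse complement CCGCCC (53.7% do). Among the 141 promoters of the 83 other cytoskeletal genes the shares were 4.26% and 68.1%. Counted per gene, 90.4% of these 83 held GGGCGG or CCGCCC.

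The monomer-binding genes included both the highest and the lowest of the 10 genes in inputs. TMSB10 (chromosome 2, 84905656 to 84906671) was the most abundant of the 10 genes in every group, and ranked 2 among all mRNAs of the vector inputs. It had 266 and 295 TPM in vector inputs, 173 and 182 TPM in QKI7 inputs, 72.6 and 78.1 TPM in vector footprints, and 76.1 and 71.9 TPM in QKI7 footprints. The inputs separated by construct while the footprints overlapped. CFL1 (chromosome 11, 65854673 to 65858180) had 46.1 and 46.1 TPM in vector inputs against 33.7 and 31.2 TPM with QKI7, and 18.6 and 18.5 TPM in vector footprints against 12.9 and 12.6 TPM. It was lower with QKI7 in both kinds of library by a similar factor, 0.704 in inputs and 0.685 in footprints. PFN1 (chromosome 17, 4945652 to 4948530) was the lowest of the 10 in inputs, with 12.6 and 13.6 TPM in vector and 12.5 and 12.01 TPM in QKI7 cells. Its footprints were 8.04 and 8.13 TPM in vector cells and 5.04 and 5.08 TPM in QKI7 cells, so the constructs were close in inputs and well apart in footprints.

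Among the filament-binding and motor genes, high RNA often came with few footprints. TPM2 (chromosome 9, 35681993 to 35690056) had 115 and 125 TPM in vector inputs and 96.6 and 87.5 TPM in QKI7 inputs, but 5.60 and 5.67, and 5.19 and 5.94 TPM in the footprints, which overlapped. TPM1 (chromosome 15, 63042747 to 63071915) had 21.2 and 23.7, and 25.8 and 24.97 TPM in inputs, and its footprints were the lowest of the 10 at 0.78 and 0.57 TPM in vector and 1.08 and 0.99 TPM in QKI7 cells. MYH9 (chromosome 22, 36281280 to 36387967) had 115 and 124 TPM in vector inputs and 116 and 112 TPM in QKI7 inputs, which overlapped. Its footprints were 1.27 and 1.38 TPM in vector cells and 1.77 and 2.01 TPM in QKI7 cells, higher in both QKI7 libraries. MYL6 (chromosome 12, 56158359 to 56161579) went the other way: with 17.3 and 20.3 TPM in vector inputs and 26.4 and 21.6 TPM in QKI7 inputs it had more TPM in footprints, 22.6 and 20.8, and 25.8 and 27.3 TPM, except that QKI7 input replicate 1 lay within the footprint range. VIM (chromosome 10, 17228241 to 17237593) had 98.6 and 102 TPM in vector inputs and 83.0 and 74.6 TPM in QKI7 inputs, with 8.53 and 7.97, and 6.92 and 7.00 TPM in footprints. Its QKI7 libraries were lower in both kinds. The antisense RNA VIM-AS1 overlaps VIM and had at most 1.03 TPM in any library.

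The order of the genes differed between RNA and footprints. In vector inputs the means ran TMSB10, ACTB, TPM2, MYH9, VIM, ACTG1, CFL1, TPM1, MYL6 and PFN1, from 280 ± 20.6 to 13.1 ± 0.651 TPM (SD, n = 2), with TPM2 and MYH9 at overlapping values (120 ± 7.05 and 120 ± 6.24 TPM). QKI7 inputs kept that order except that MYH9 (114 ± 2.87 TPM) stood above TPM2 (92.0 ± 6.45 TPM). In vector footprints ACTG1 and MYL6 moved up to just below ACTB, and MYH9 and TPM1 came last, over a range from 75.3 ± 3.88 TPM (TMSB10) to 0.675 ± 0.148 TPM (TPM1). VIM and PFN1 overlapped there, at 8.25 ± 0.396 and 8.09 ± 0.0636 TPM. In QKI7 footprints ACTG1 (31.2 ± 0.325 TPM) stood above ACTB (27.4 ± 0.566 TPM), and ACTB and MYL6 (26.5 ± 1.05 TPM) overlapped. Together the 10 genes held 2.50% ± 0.00681 of mRNA TPM in vector inputs and 1.76% ± 0.0270 in QKI7 inputs, and 3.30% ± 0.0165 and 3.14% ± 0.0424 in the footprints.

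Footprints set against RNA show which of these mRNAs carried many ribosome-protected fragments for their level during arsenite stress. In vector cells the footprint TPM per input TPM ranged from 0.0111 for MYH9 to 1.16 for MYL6, a 104-fold span between partners of the same motor, and in QKI7 cells from 0.0166 to 1.11 for the same pair. TPM1 and TPM2 had 0.0300 and 0.0469 in vector cells, and VIM and ACTB 0.0821 and 0.188. TMSB10, CFL1, ACTG1 and PFN1 had 0.269, 0.403, 0.591 and 0.617. Some of their relatives had similar values and others did not. MYH10, another non-muscle heavy chain, had 0.0114, and the tropomyosins TPM3 and TPM4 had 0.0309 and 0.0165. The light chains MYL12A and MYL12B had 1.15 and 1.22, and PFN2 had 1.09, while the light chains MYL9 and MYL6B, the latter named after its value was seen, had 0.240 and 0.0603. TMSB4X, the other main thymosin, had 2.80, so that TMSB10 was 37.7 ± 0.858 times TMSB4X in vector inputs but 3.62 ± 0.158 times in vector footprints (SD, n = 2). These encoded proteins differ widely in size, from the thymosins to the myosin heavy chains. Neither mRNA length nor the coding share of each mRNA was analysed here, and their part in the ratios was not tested.

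**Figure D2:**
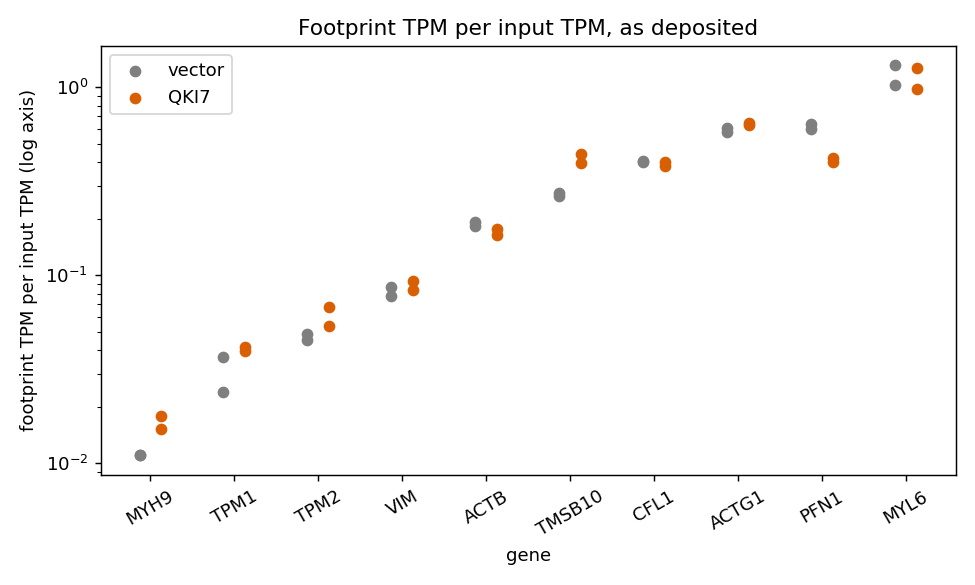
Footprint TPM divided by input TPM of the library with the same replicate number and construct (vertical log axis), for the 10 genes ordered by the vector mean; grey points are vector and orange points QKI7, with 2 points each. The values run from 0.0110 for MYH9 in vector replicate 1 to 1.31 for MYL6. The constructs overlap for CFL1, MYL6 and VIM and not for the other genes. For this ratio the share of all entries without overlap was not counted, so the separation marks none of these genes out.

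The median log2 change of all entries from inputs to footprints was -1.81 in vector and -1.97 in QKI7 cells as deposited, and -0.28 and -0.31 on the mRNA scale. As deposited it depended on the processing. It was -3.79 and -3.92 when 0.1 TPM was added before logs, and -0.30 and -0.37 with no filter on low values. By limma, 9 of the 10 genes were lower in footprints than in inputs on the deposited scale in vector cells, against 89.9% of all entries (97.6% called in either direction, 7.70% higher). In QKI7 cells 9 were lower as well, against 90.8% (98.2% in either direction, 7.42% higher). MYL6 was the exception, with log2 changes of 0.20 (SE 0.12, adjusted p = 0.135) and 0.15 (SE 0.12, adjusted p = 0.264). On the mRNA scale, where 78.4% of genes in vector and 75.8% in QKI7 cells were called, 6 of the 10 were higher in footprints (33.3% and 30.1% of genes) and 4 were lower (45.2% and 45.7%). Those lower were MYH9, TPM1, TPM2 and VIM, and those higher were MYL6, PFN1, ACTG1, CFL1, TMSB10 and ACTB. MYH9 had a log2 change of -3.88 in vector cells (SE 0.071, adjusted p = 5.12e-10) and MYL6 of 2.83 (SE 0.080, adjusted p = 5.39e-09). ACTB, at 0.20 (SE 0.037, adjusted p = 0.000917), was near the boundary, while ACTG1 was at 1.86 (SE 0.039, adjusted p = 1.16e-09). Only 0.820% of the genes tested had a lower value than MYH9 on that scale in vector cells.

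The input comparison asks which of these mRNAs changed in level with QKI7. The construct itself was plain: QKI had 3.01 and 3.45 TPM in vector inputs and 1749 and 1580 TPM in QKI7 inputs. TMSB10, CFL1, TPM2 and VIM fell, and none of the 10 rose. On the deposited scale these 4 genes were called lower against 5.48% of all entries, and 0 were called higher against 39.1% (44.6% in either direction). At an unadjusted p under 0.05 the higher count was 1, MYL6. TMSB10 had a mean of 280 ± 20.6 TPM in vector and 177 ± 6.07 TPM in QKI7 inputs (SD, n = 2), a log2 change of -0.66 (SE 0.099, adjusted p = 0.00248). CFL1 had 46.1 ± 0.0424 and 32.5 ± 1.80 TPM, a log2 change of -0.49 (SE 0.080, adjusted p = 0.00298). For TPM2 the means were 120 ± 7.05 and 92.0 ± 6.45 TPM, and the log2 change -0.38 (adjusted p = 0.0156). For VIM they were 100.4 ± 2.59 and 78.8 ± 5.89 TPM, with -0.35 (adjusted p = 0.0148). The call of TPM2 was lost without vector input replicate 2 (adjusted p = 0.0680) and without QKI7 input replicate 2 (adjusted p = 0.0548), and that of VIM without vector input replicate 2 (adjusted p = 0.0547).

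The actins and PFN1 moved less and their calls depended on the scale. ACTB and ACTG1 had log2 changes of -0.21 and -0.16 on the deposited scale (adjusted p = 0.0796 and 0.154). On the mRNA scale they were called, at -0.39 (SE 0.037, adjusted p = 0.000397) and -0.34 (SE 0.039, adjusted p = 0.000930). PFN1 had -0.088 as deposited (adjusted p = 0.339). Its -0.27 on the mRNA scale was called (adjusted p = 0.0238), a call that was lost when QKI and RELN were left out of the total (adjusted p = 0.0595). MYH9 had -0.067 and -0.25 and was called on neither scale (adjusted p = 0.540 and 0.0724). TPM1 had 0.17 (adjusted p = 0.144), which turned to -0.0017 by rescaling to mRNA (adjusted p = 0.997). MYL6 was nearest to a rise, at 0.33 as deposited (SE 0.12, adjusted p = 0.0544) but 0.17 on the mRNA scale (adjusted p = 0.285), with its QKI7 inputs at 26.4 and 21.6 TPM. In all, the mRNA scale called 7 of 10 genes lower, against 8.01% of genes, and 0 higher, against 1.15% (9.17% in either direction; 0 of the 10 rose at an unadjusted p under 0.05 by limma either). The median over the 10 genes stood at -0.34 relative to that of all entries as deposited and at -0.31 on the mRNA scale, where the medians of all entries were 0.15 and -0.058.

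Counts of other cytoskeletal genes stand against 39.1% of all entries higher and 5.48% lower as deposited, and most lists lay near these shares. Of 29 tested genes of filament assembly, 9 rose and 0 fell. They included SSH1, a cofilin phosphatase (log2 change 0.56, adjusted p = 0.00361), and ACTR2 and ARPC4 of the Arp2/3 complex, which nucleates branches (0.39 and 0.38, adjusted p = 0.00458 and 0.0224). Of 25 crosslinking and adhesion genes, 8 rose and 2 fell. PALLD, a scaffold of stress fibres, had 2.68 and 2.98 TPM in vector and 5.84 and 4.91 TPM in QKI7 inputs, a rise of 0.73 (adjusted p = 0.00119). CNN2, a calponin, and TAGLN, a calponin relative, rose by 0.47 and 0.46 (adjusted p = 0.00134 and 0.00639), while FLNC, a filamin, and TAGLN2 fell by 0.32 and 0.26 on the log2 scale (adjusted p = 0.0124 and 0.0282). Of 18 other myosin and tropomyosin genes, 8 rose and 0 fell, led by MYL9 (0.41, adjusted p = 0.0117) and the kinases ROCK1 and ROCK2, which activate myosin (0.35 each, adjusted p = 0.00996 and 0.00775). Of 6 other intermediate filament genes, NES and LMNB1 rose (0.34 and 0.22, adjusted p = 0.00307 and 0.0450) and KRT18 fell by 0.25 on the log2 scale (adjusted p = 0.0401). The median of all entries was itself 0.15 higher as deposited. On the mRNA scale 1 of 23, 0 of 23, 0 of 5 and 0 of 5 genes of the 4 lists rose, and 0, 3, 0 and 1 fell. The medians of the lists relative to all entries were -0.070, 0.0065, 0.012 and -0.18 as deposited.

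**Figure D3:**
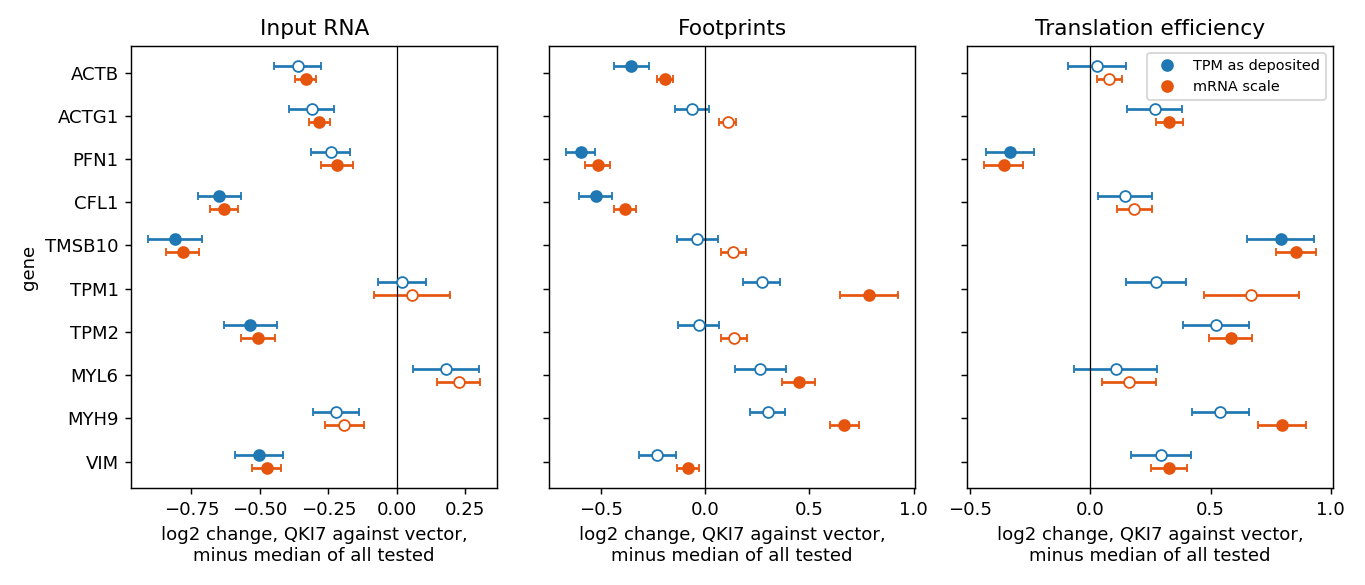
Log2 change of QKI7 against vector for each gene minus the median of all entries tested (horizontal axis), in inputs, in footprints and in translation efficiency; bars are standard errors of the limma fit with 2 libraries per group, blue is the deposited scale, orange the mRNA scale, and filled points were called. In inputs 8 of 10 genes lie below the median of all entries on both scales, and in translation efficiency PFN1 alone lies below it.

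Footprints were compared to ask which of these mRNAs were more or less occupied by ribosomes with QKI7. PFN1 and CFL1 fell on both scales and ACTB fell narrowly, while TMSB10, TPM2 and ACTG1 were not called on either scale. The median of all entries was 0.013 as deposited and -0.13 on the mRNA scale. As deposited, 3 of 10 genes were called lower, against 4.60% of all entries, and 0 higher, against 3.60% (8.20% in either direction). At an unadjusted p under 0.05 the higher genes were TPM1 and MYH9, while MYL6 missed it. PFN1 had a mean of 8.09 ± 0.0636 TPM in vector and 5.06 ± 0.0283 TPM in QKI7 footprints (SD, n = 2), a log2 change of -0.58 (SE 0.071, adjusted p = 0.00260). CFL1 had 18.6 ± 0.0354 and 12.7 ± 0.233 TPM, a log2 change of -0.51 (SE 0.080, adjusted p = 0.00686). For ACTB the means were 35.0 ± 0.474 and 27.4 ± 0.566 TPM, and the log2 change -0.34 (SE 0.085, adjusted p = 0.0496). Leaving out 1 library ended the call of ACTB in 6 of 8 fits, namely without any of the 4 footprint libraries and without either vector input library, and so did the replicate block (adjusted p = 0.105). On the mRNA scale ACTB was called at -0.32 (SE 0.037, adjusted p = 0.000637). In a fit of the 4 footprint libraries alone, none of the 3 genes was called (adjusted p = 0.0531 for PFN1, 0.0651 for CFL1 and 0.0871 for ACTB).

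TPM1, MYH9 and MYL6 went up on the mRNA scale. There 3 of 10 genes were called higher, against 14.0% of genes, and 4 lower, against 20.4% (34.4% in either direction). TPM1 rose by 0.66 (SE 0.14, adjusted p = 0.00831), MYH9 by 0.54 (SE 0.071, adjusted p = 0.00105) and MYL6 by 0.32 (SE 0.080, adjusted p = 0.0157), which as deposited had 0.28, 0.31 and 0.28 and missed the threshold (adjusted p = 0.102, 0.0651 and 0.262). Beside ACTB, PFN1 and CFL1, VIM was called lower on that scale, at -0.21 (SE 0.053, adjusted p = 0.0168), a call lost when QKI and RELN were left out of the total (adjusted p = 0.374). TMSB10 and TPM2 had -0.025 and -0.018 as deposited (SE 0.099 and 0.097, adjusted p = 0.991 each) but 0.0092 and 0.013 on the mRNA scale, with the sign turned. ACTG1 had -0.050 and -0.018 (adjusted p = 0.925 and 0.747). Quantile normalization called TMSB10 and ACTG1 lower in footprints, at -0.58 and -0.30 (adjusted p = 0.00877 and 0.0233). ACTB over ACTG1 was lower with QKI7 in both kinds of library, without overlap, and more so in footprints. It went from 1.09 and 1.07 in vector footprints to 0.858 and 0.896 in QKI7 footprints. In inputs it went from 3.44 and 3.36 to 3.30 and 3.27. The share of all gene pairs without overlap was not counted, and how reads shared by both actins were divided is not known.

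**Figure D4:**
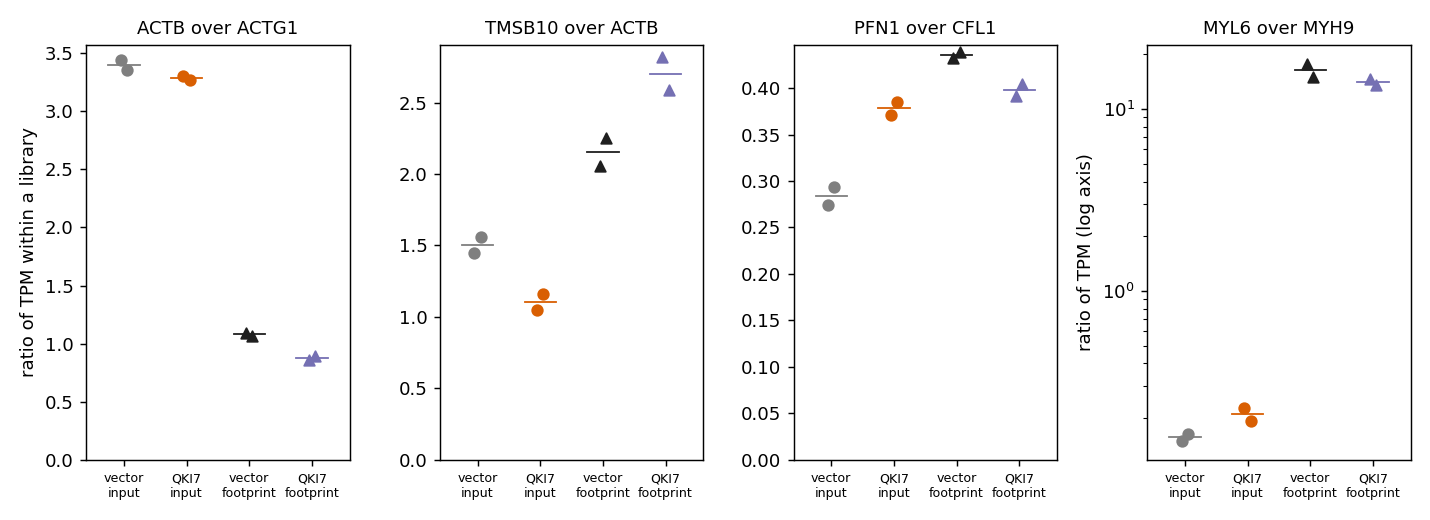
Ratios of TPM between 2 genes within each library, which do not depend on scaling; points are the 2 libraries of a group, lines are their means, and the axis of MYL6 over MYH9 is a log axis. ACTB over ACTG1 drops from a mean of 3.40 in vector inputs to 1.08 in vector footprints, and TMSB10 over ACTB falls with QKI7 in inputs and rises in footprints.

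In the wider lists, 4 genes rose and 3 fell in footprints as deposited, where 3.60% of all entries were higher and 4.60% lower. PLEC, the linker plectin, rose from vector values of 1.50 and 1.53 TPM to 3.16 and 3.04 TPM, by 0.70 (adjusted p = 0.00165). FLNA, filamin A, rose from a mean of 1.21 TPM to 1.96 and 2.20 TPM, by 0.48 (adjusted p = 0.00781). FSCN1, fascin, rose from 1.14 and 1.27 TPM to 1.73 and 1.67 TPM, by 0.29 (adjusted p = 0.0383). They were the 3 of 25 crosslinking and adhesion genes that passed. Of 29 filament assembly genes 1 rose, SSH1, whose footprints (14.9 to 25.6 TPM) exceeded its inputs (1.99 to 3.80 TPM), and 2 fell, the Arp2/3 subunits ARPC3 and ARPC2 (log2 changes -0.59 and -0.28, adjusted p = 0.00490 and 0.0440). MYL12B fell from a mean of 14.0 TPM to 9.43 and 9.44 TPM (log2 change -0.53, adjusted p = 0.0239) as the only called gene of 18 in its list, and 0 of 6 other intermediate filament genes were called as deposited, where LMNB2 passed on the mRNA scale alone (0.94, adjusted p = 0.000904). On that scale, where 14.0% of genes were higher and 20.4% lower, the filament assembly list had 3 higher and 4 lower of 23, the crosslinking and adhesion list 6 and 1 of 23, the myosin and tropomyosin list 0 and 1 of 5, and the intermediate filament list 1 and 0 of 5.

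Translation efficiency, the stated subject of the series, is here the change of footprints minus the change of input RNA. TMSB10 rose and PFN1 fell on both scales. As deposited, TMSB10 was the 1 gene of 10 called higher, against 3.57% of all entries, and PFN1 the 1 called lower, against 21.6% (25.2% in either direction). TMSB10 footprints per input TPM were 0.273 and 0.265 in vector cells and 0.440 and 0.396 in QKI7 cells, libraries of the same number being set together. The log2 change was 0.63 (SE 0.14, adjusted p = 0.0206), with inputs that fell and footprints that overlapped between constructs. PFN1 had 0.636 and 0.600 in vector and 0.403 and 0.423 in QKI7 cells (log2 change -0.50, SE 0.10, adjusted p = 0.0159), with inputs that were close and footprints that fell. Leaving out any of the 4 footprint libraries ended both calls, with adjusted p between 0.0525 and 0.0749 for TMSB10 and between 0.0515 and 0.0590 for PFN1. Within libraries, TMSB10 over ACTB went from 1.45 and 1.56 to 1.05 and 1.16 in inputs and from 2.06 and 2.25 to 2.82 and 2.59 in footprints with QKI7. PFN1 over CFL1 went from 0.274 and 0.294 to 0.371 and 0.385 in inputs and from 0.432 and 0.439 to 0.391 and 0.404 in footprints. Both ratios moved in opposite directions in the 2 kinds of library. The second gene of each pair changed too: mean ACTB footprints went from 35.0 to 27.4 TPM and CFL1 inputs from 46.1 to 32.5 TPM. TMSB10 over TMSB4X instead fell in both kinds, from means of 37.7 to 23.8 in inputs and 3.62 to 3.05 in footprints. The constructs did not overlap in any of these ratios, but with 2 libraries each that is common. Among single entries, QKI7 libraries lay wholly above the vector libraries for 57.8% and wholly below for 11.6% in inputs. In footprints these shares were 30.4% and 22.4%.

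On the mRNA scale the count was 5 of 10 higher, against 8.38% of genes, and 1 of 10 lower, PFN1, against 3.91% (12.3% in either direction). TMSB10 had 0.85 (SE 0.084, adjusted p = 0.00117), MYH9 0.79 (SE 0.10, adjusted p = 0.00285) and TPM2 0.58 (SE 0.088, adjusted p = 0.00542). ACTG1 and VIM had 0.32 each (adjusted p = 0.00843 and 0.0263). PFN1 had -0.37 (SE 0.082, adjusted p = 0.0237), and with QKI and RELN left out of the total its call was lost (-0.28, adjusted p = 0.0584) and 7 genes were called higher. As deposited, MYH9 and TPM2 had 0.38 and 0.36 and missed the threshold (adjusted p = 0.0509 and 0.0850). ACTG1, VIM and TPM1 had 0.11, 0.13 and 0.11 (adjusted p = 0.512, 0.443 and 0.520). ACTB, CFL1 and MYL6 were called on neither scale and changed sign between them, at -0.13, -0.017 and -0.056 as deposited and 0.073, 0.18 and 0.16 on the mRNA scale. The median of the 10 genes was 0.27 above that of all entries as deposited and 0.33 above on the mRNA scale. As deposited, their relative median was -0.34 in inputs and -0.051 in footprints. On the mRNA scale the crosslinking and adhesion list and the intermediate filament list lay close to the 10 genes, at 0.28 and 0.30. The filament assembly list and the myosin and tropomyosin list lay at -0.17 and -0.079. In the wider lists as deposited, 0 of 29 filament assembly genes were higher and 7 lower, against 21.6% of all entries lower, such as ARPC3 (-0.81, adjusted p = 0.00844), CAP1 and ARPC4 (-0.50 each, adjusted p = 0.0188 and 0.0480). Of 25 crosslinking and adhesion genes PLEC and FLNC were higher (0.58 and 0.37, adjusted p = 0.0140 and 0.0431) and 5 lower, led by PALLD (-0.63, adjusted p = 0.0116), VCL (-0.46, adjusted p = 0.00986) and TAGLN (-0.43, adjusted p = 0.0480). PALLD footprints rose, from 0.14 and 0.13 TPM in vector to 0.21 and 0.23 TPM in QKI7 cells. These lie far under the 1 TPM added before logs, so their rise counted little and the efficiency change mostly follows the inputs. Footprint TPM per input TPM went from 0.0477 in vector to 0.0409 in QKI7 cells for PALLD. For VCL it went from 0.0842 to 0.0507, and for TAGLN from 0.567 to 0.385. VCL footprints, at 0.33 to 0.42 TPM, were also far under 1 TPM. FLNC footprints were under 1 TPM and overlapped, at 0.63 and 0.79 TPM in vector and 0.82 and 0.72 TPM in QKI7 cells. Its efficiency change thus mostly mirrors its lower inputs. When rescaled to mRNA, the crosslinking and adhesion list had 7 of 23 higher and 0 lower, and the filament assembly list 2 of 23 higher and 1 lower. No other myosin or tropomyosin gene of 18 was called, and of the intermediate filament list LMNB2 was higher and NES lower (0.27 and -0.28, adjusted p = 0.0433 and 0.0355). NES footprints were 0.17 and 0.17 TPM in vector and 0.23 and 0.20 TPM in QKI7 cells, also far under 1 TPM. Its footprint TPM per input TPM hardly differed, at 0.0219 in vector and 0.0213 in QKI7 cells, so the call mirrors its higher inputs. LMNB2 had 0.0128 in vector and 0.0263 in QKI7 cells, with footprints of 0.15 to 0.30 TPM, far under 1 TPM as well.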

How the data were processed

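Ribosome profiling and input RNA of U2OS cells were measured, and the authors deposited 1 table of TPM for 26902 entries in 8 libraries, rounded to 2 decimals; each library is scaled to one common sum over all entries, ribosomal and small RNA included. STAR, RSEM 1.2.31 and GRCh38 are named, without settings, in the submitters' processing notes; strandedness and the handling of shared reads are not stated there. TPM keeps no read depth. Spike-in RNAs took 13.9% ± 0.793 of all TPM in vector inputs and 14.5% ± 1.95 in QKI7 inputs (SD, n = 2 each). In vector and QKI7 footprints they took 0.00110% and 0.00123%. Scaling the inputs to the spike-ins gave 4 members lower with QKI7, 0 higher and 1781 calls in inputs. Entries were matched to RefSeq (GRCh38.p14) by symbol (23970) or older symbol (1395), and 1537 had no match. The mRNA scale kept 18706 protein-coding entries without histone genes, rescaled per library, and tested those whose deposited mean reached 1 TPM over inputs and 0.2 TPM over footprints. Changes in log2(TPM + 1) were fitted with limma 3.58.1 (R 4.3.3), using lmFit and eBayes with trend, with 4 group means, 4 residual degrees of freedom and two-sided p-values adjusted by Benjamini-Hochberg over all entries tested. The fit was tested on simulated data. Alternatives changed the scaling, the pseudocount, the filter, the variance model, the replicate block, the libraries fitted and, in turn, each library. The members, the lists and the tests were chosen with earlier results of these data known. Named genes are all 10 members, their nearest relatives and up to 3 genes per direction and list, by size among those called, for QKI7 against vector.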

Additional observations from a re-analysis of the deposited data

Results flagged for a closer look

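PFN1 and TMSB10 were singled out because the effect of QKI7 differed between inputs and footprints by the interaction term of the limma fit. For PFN1 the effect in footprints minus that in inputs was -0.50 on the log2 scale (adjusted p = 0.0159, lower in QKI7 cells in both pairs of same-numbered libraries), and over all alternatives it ran from -0.57 to -0.28. For TMSB10 it was 0.63 (adjusted p = 0.0206, higher in both such pairs), and over all alternatives it ran from 0.40 to 0.94. The cause was not tested.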

How the results depend on the processing

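Alternatives on the mRNA scale with 10 TPM as pseudocount, with the replicate block, or with QKI and RELN left out of the total were chosen after seeing the data. In inputs, QKI7 against vector, 4 members were lower and 0 higher among 2587 calls. The mRNA scale gave 7 lower and 246 calls (7 and 252 with pseudocount 10, 7 and 215 with the block, 200 calls without QKI and RELN), median-of-ratios scaling 8 lower, pseudocount 0.1 gave 2 lower and 375 calls, and quantile normalization and the fit with no variance trend gave 1 higher each. There were 5153 calls with no filter, 410 at 5 TPM or more and 913 with only the groups compared. Without 1 library there were 0 to 1 higher (1 without vector input replicate 2 or QKI7 input replicate 2), 2 to 4 lower (2 without vector input replicate 2) and 1685 to 2603 calls (1685 without QKI7 input replicate 1). In footprints (0 higher, 3 lower, 476 calls), members higher were 3 on the mRNA scale, 3 with pseudocount 10, 3 with the block, 4 without QKI and RELN, 1 by median-of-ratios, 2 by quantile normalization, 2 and 1 at pseudocounts 0.1 and 0.5, 2 at 5 TPM and 1 with no trend; 6 were lower by quantile normalization and 0 with only the groups compared. Calls were 923, 950, 881 and 830 on the 4 mRNA scales, 1124 at pseudocount 0.1, 266 with no filter, 74 with only the groups compared, and 253 to 439 without 1 library. In translation efficiency (1 higher, 1 lower, 1461 calls), members higher were 5 on the mRNA scale, 5 with pseudocount 10, 5 with the block, 7 without QKI and RELN, 3 by median-of-ratios, 0 by quantile normalization, 2 at 5 TPM, 2 with no trend and 0 to 1 without 1 library; members lower were 0 without QKI and RELN, 2 by quantile normalization, 0 at pseudocount 0.1 and 0 to 1 without 1 library. Calls were 330, 351, 310 and 363 on the mRNA scales, 217 at pseudocount 0.1, 819 with no filter, 296 at 5 TPM, and 269 to 1931 without 1 library. For footprint against input (0 higher, 9 lower in each construct), 6 were higher and 4 lower on all 4 mRNA scales, and 1 was higher in vector cells by quantile normalization. Vector calls went from 5667 to 2105, 2114, 2086 and 2106, to 16314 with no filter and 1099 at 5 TPM; QKI7 calls went from 5703 to 2034, 2049, 2021 and 2038, to 17195 and 1105. The filters test more or fewer entries by construction; the cause of the other differences was not tested.

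Members turned sign as follows, in the order mRNA scale, pseudocount 10, replicate block, QKI and RELN left out. Footprint against input in vector cells was 0.20, 0.20, 0.20 and 0.22 for ACTB, 1.86, 1.85, 1.86 and 1.88 for ACTG1, 1.92, 1.89, 1.92 and 1.94 for PFN1, 1.30, 1.30, 1.30 and 1.32 for CFL1, and 0.72, 0.72, 0.72 and 0.74 for TMSB10. In QKI7 cells it was 0.28, 0.27, 0.28 and 0.38 for ACTB, 2.18, 2.17, 2.18 and 2.29 for ACTG1, 1.55, 1.52, 1.55 and 1.66 for PFN1, 1.48, 1.47, 1.48 and 1.59 for CFL1, and 1.57, 1.57, 1.57 and 1.68 for TMSB10. Footprint changes with QKI7 were 0.0092, 0.0092, 0.0092 and 0.15 for TMSB10, 0.013, 0.013, 0.013 and 0.16 for TPM2, and 0.13 for ACTG1 without QKI and RELN (adjusted p = 0.0390, called). Input changes of TPM1 were -0.0017 on the first 3 and -0.021 by median-of-ratios, and MYH9 had 0.15 by quantile normalization. Efficiency changes were 0.073, 0.073, 0.073 and 0.16 for ACTB, 0.18, 0.17, 0.18 and 0.27 for CFL1, and 0.16, 0.16, 0.16 and 0.24 for MYL6; median-of-ratios gave 0.0012, 0.11 and 0.070 for these 3, and quantile normalization -0.084 for ACTG1 and 0.057 for CFL1. Without 1 library, footprint changes ran from -0.10 to 0.065 for TPM2 (positive without QKI7 footprint replicate 1) and from -0.077 to 0.027 for TMSB10 (positive without replicate 2 of either footprint group). Efficiency changes ran from -0.072 to 0.037 for CFL1 (positive without QKI7 input replicate 1) and from -0.20 to 0.083 for MYL6 (positive without QKI7 input replicate 1, vector input replicate 1 or vector footprint replicate 1).

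Same-numbered libraries deviated together little or not at all (correlations of deviations from -0.088 to 0.13 over the 6 pairs of groups). The highest value was between QKI7 inputs and QKI7 footprints. The labels give no pairing, and with 2 libraries per group this check cannot tell whether same-numbered libraries share a culture. As deposited, the replicate block gave 2305, 423 and 1099 calls for inputs, footprints and translation efficiency, and changed the call of ACTB in footprints, the only member call it changed among these 3 comparisons. TPM keeps no depth, so no limit from counting can be given. Members with few footprint TPM, TPM1 and MYH9, lie near the pseudocount as deposited, and their footprint changes grow from 0.28 and 0.31 to 0.66 and 0.54 on the mRNA scale.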
